A study of Rattus norvegicus with 12 samples.

Results

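The motile cilia genes described here are Foxj1 and every gene whose symbol starts with Dnah, Dnai, Dnaaf, Rsph, Cfap, Drc, Tekt, Spag or Ift followed by a digit, measured in the lung of male Sprague-Dawley rats by single-colour microarray. The rat gene table holds 127 such symbols, and 82 of them had a probe on the array. Each gene stands by its most intense probe, and 76 of the 82 were detected, meaning that every array of 1 or more groups read well above background. These 76 genes are set against 21239 detected probes and, by gene, against 11146 detected genes with a symbol. They were chosen by name alone, so that some members are not parts of a cilium: Spag5, a spindle protein, Spag9, a signalling scaffold, and Spag7 carry the Spag symbol for other reasons.

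The series holds 12 arrays in 4 groups of 3 rats aged 8 to 12 weeks. Control rats breathed air and received saline. CS+LPS rats breathed cigarette smoke and had lipopolysaccharide, a component of bacterial walls, instilled into the trachea, which served as a model of chronic obstructive pulmonary disease. CS+LPS+NaHS rats had the same exposure and were injected beforehand with NaHS, a donor of hydrogen sulphide. CS+LPS+PPG rats had the same exposure and were injected beforehand with PPG, an inhibitor of the enzyme CTH, which makes hydrogen sulphide. Every exposed group therefore carried both smoke and lipopolysaccharide, and there was no group with either alone or with a drug alone. The RNA came from a piece of whole lung, in which fewer ciliated cells and less RNA per ciliated cell cannot be told apart. All 10 alveolar type 2 cell markers measured were detected on all 12 arrays, which bears on the lung label.

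Motile cilia are the beating hairs of airway epithelium that move mucus towards the throat. Each is built on an axoneme of microtubule doublets, along which dynein motors, made of heavy and intermediate chains, slide the doublets. Assembly factors (Dnaaf) fold these motors in the cytoplasm, radial spokes (Rsph) and the nexin-dynein regulatory complex (Drc) coordinate the stroke, and tektins (Tekt) lie inside the doublets. Intraflagellar transport proteins (Ift) carry cargo along cilia of every kind, including the single non-motile primary cilium of most cells. Foxj1 is the transcription factor that switches on motile cilia genes, together with factors of the RFX family, which read a sequence known as the X-box.

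The promoters of the members were searched for 2 short motifs on both strands, an X-box core written GTTNCNATG and a forkhead core written GTAAACA, in windows of 300 bases from the RefSeq table for GRCr8. Of the 82 members, 64 had a promoter in the table, some with several start sites, and Foxj1 was not among them. The X-box core was present in 14.1% of these 64 genes, against 3.91% of the 27457 genes in the table. Among the 46 members other than Ift and Spag genes the share was 17.4%, with the match in 8 genes, and among the 11 Ift genes it was 9.09%, or 1 gene. The forkhead core was present in 4.69% of the 64 members, or 3 genes, and in 4.13% of all genes. A match to letters is a description and not evidence that a factor binds there. The sequences below show the 100 bases before the start site, 5′ to 3′ on the strand of the gene, for the 6 members with a match inside these 100 bases. Capitals mark the motif, which is the X-box core on either strand in all but Cfap43, where it is the forkhead core; in Dnaaf2 the capitals hold 2 overlapping X-box cores on opposite strands.
Dnaaf2, chr6:93406324-93406423, minus strand: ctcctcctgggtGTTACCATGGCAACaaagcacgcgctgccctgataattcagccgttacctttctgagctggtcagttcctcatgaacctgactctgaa
Tekt3, chr10:48228759-48228858, plus strand: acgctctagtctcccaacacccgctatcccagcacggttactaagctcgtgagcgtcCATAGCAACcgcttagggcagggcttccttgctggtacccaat
Cfap161, chr1:147177822-147177921, minus strand: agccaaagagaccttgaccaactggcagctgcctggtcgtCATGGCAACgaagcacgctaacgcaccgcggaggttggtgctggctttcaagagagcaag
Cfap141, chr2:177805190-177805289, plus strand: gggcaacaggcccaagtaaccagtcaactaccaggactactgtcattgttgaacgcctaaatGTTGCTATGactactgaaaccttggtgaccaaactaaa
Ift81, chr12:39618522-39618621, plus strand: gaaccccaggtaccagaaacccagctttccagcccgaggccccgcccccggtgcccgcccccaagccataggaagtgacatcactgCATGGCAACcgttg
Cfap43, chr1:256653685-256653784, minus strand: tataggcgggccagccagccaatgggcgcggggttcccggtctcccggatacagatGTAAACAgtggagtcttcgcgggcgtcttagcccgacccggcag

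In these genes 1 array, Control replicate 3, stood furthest from the rest. It was the only control on the slide of the CS+LPS arrays, so that array, slide and treatment cannot be fully told apart. All levels below are log2 signals after scaling each array to its 75th percentile, so that a difference of 1 is 2-fold. Control replicate 3 gave the highest of the 12 values for 56 of the 76 members, whereas it was highest for 32.6% of all detected probes. It exceeded the next highest array by more than 1 in 15 of the 76 members, against 5.59% of all probes. Over the members it stood 0.99 (median) above the mean of Control replicates 1 and 2, while the median over all detected probes was 0.06. For the 53 members that are neither Spag nor Ift genes the median was 1.19, and 49 of the 53 were higher. Under 3 other ways of scaling or background correction, chosen after seeing the data, the median for these 53 was 1.07 to 1.17, with 48 or 49 of them higher.

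**Figure D1:**
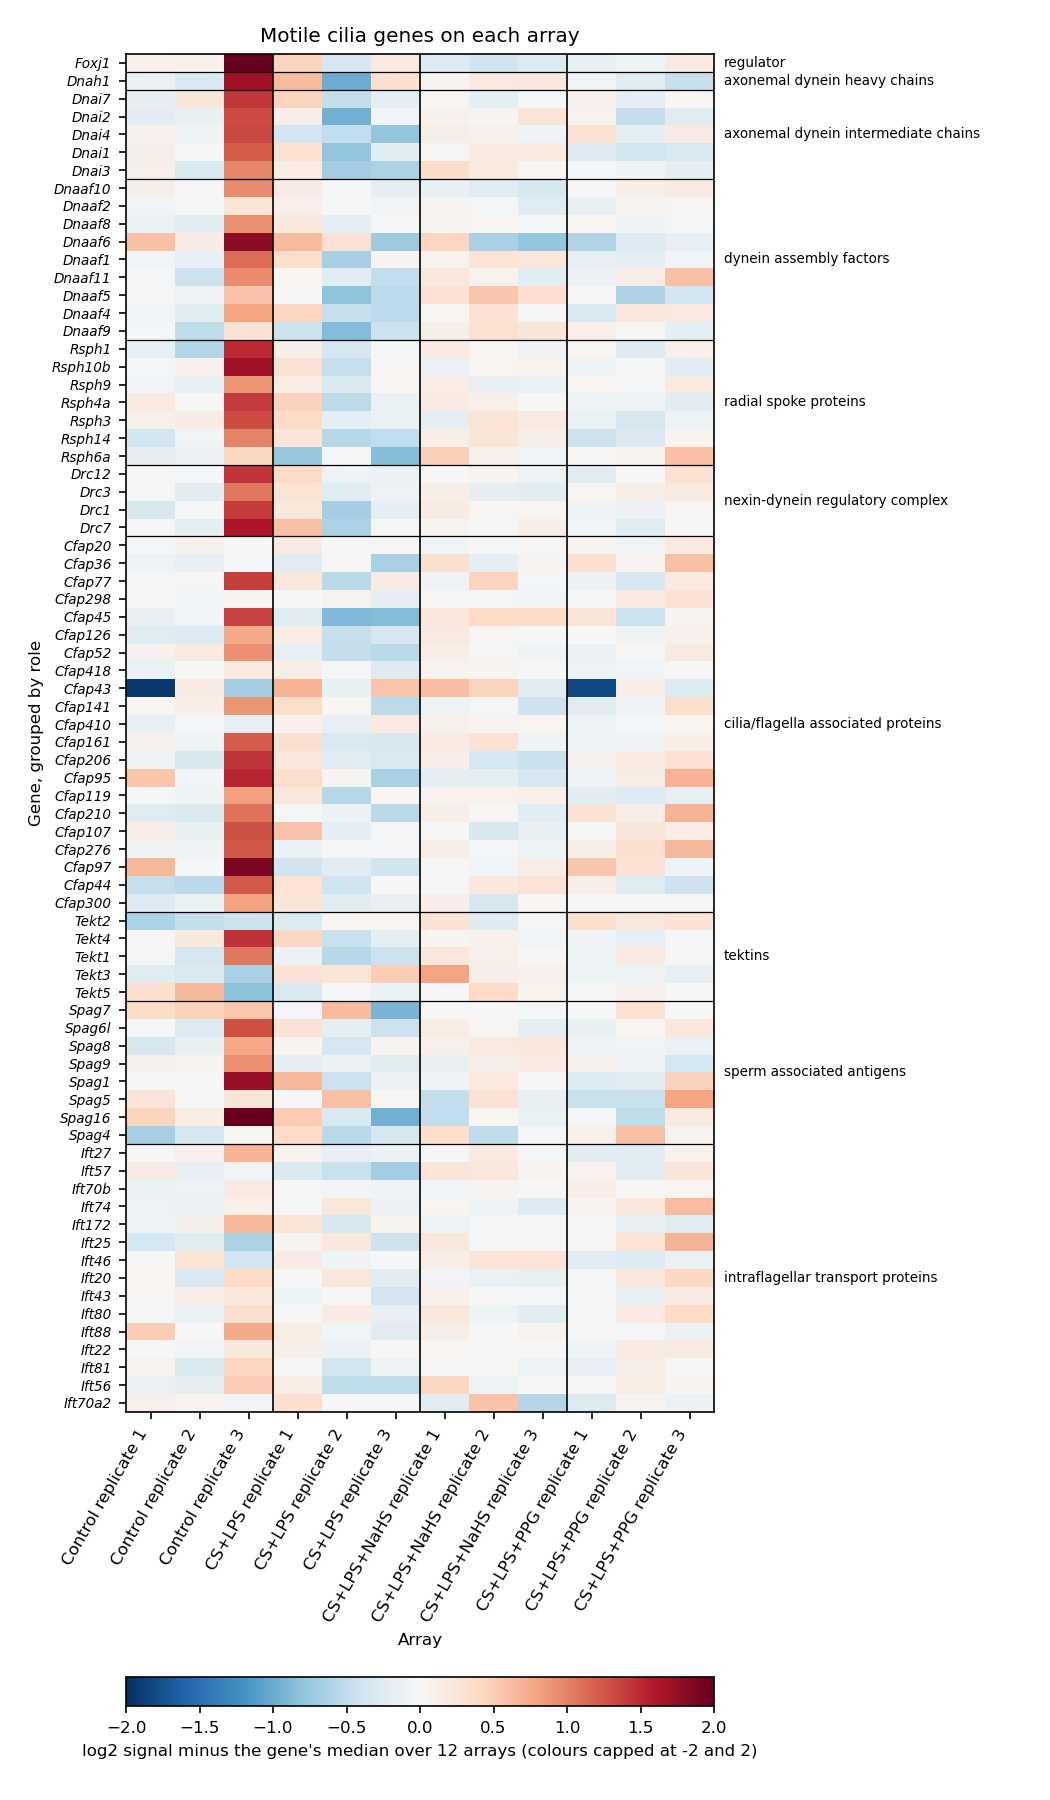
Each row is 1 of the 76 detected members, ordered by role, and each column 1 of the 12 arrays. The colour is the difference in log2 signal from the median of that gene over the 12 arrays, with the colour scale capped at both ends. The column of Control replicate 3 is high through most roles and near the others for most of the intraflagellar transport genes.

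The excess on Control replicate 3 followed the role of the gene. It was 2.05 for Foxj1, 1.90 for the dynein heavy chain Dnah1, and 1.08 to 1.49 for the 5 dynein intermediate chains. The 4 nexin-dynein regulatory complex genes stood 1.19 to 1.72 above the other controls and the 7 radial spoke genes 0.57 to 1.87 above. The 9 dynein assembly factors had a median excess of 0.93 and the 21 Cfap genes 1.01. The 15 intraflagellar transport genes, which serve primary cilia too, had a median of 0.27, and 8 of them were highest on this array. None of them was more than 1 above the other controls, where 2921 of 21239 detected probes were. The tektins were split, since Tekt1 and Tekt4 were highest on this array whereas Tekt3 and Tekt5 were lowest there. Of the Cfap genes, Cfap20, Cfap298 and Cfap410 differed from the other controls by -0.02, 0.10 and -0.06. These group medians are descriptions of 1 array and carry no test.

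**Figure D2:**
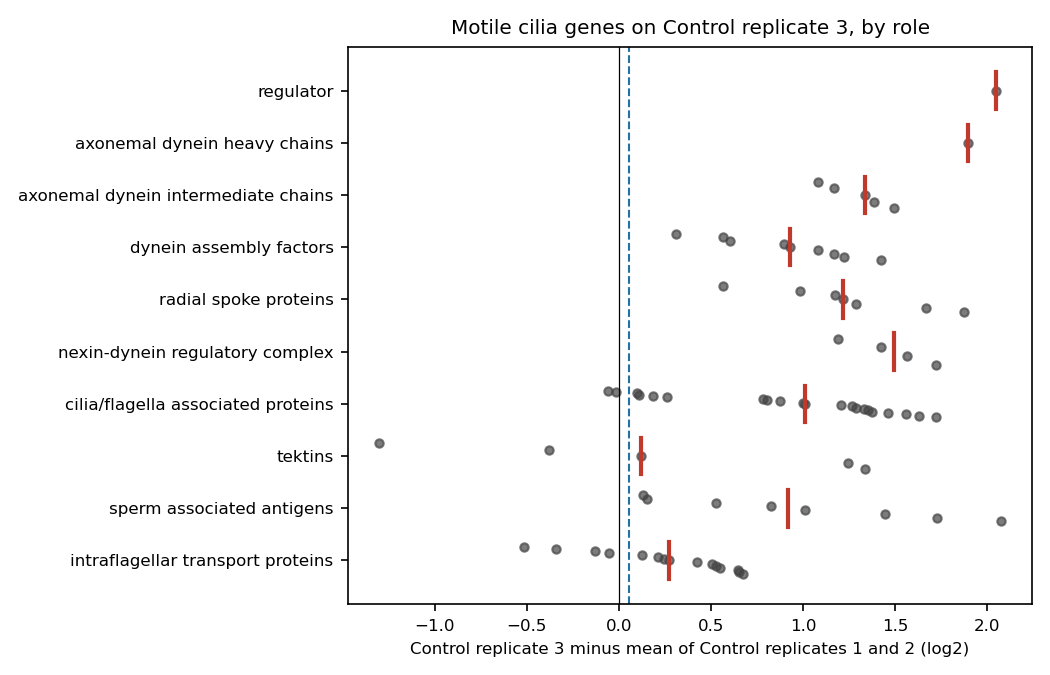
Each point is 1 member, and its position is the log2 signal of Control replicate 3 minus the mean of Control replicates 1 and 2; the red line is the median of the role and the dashed line the median of all detected probes, 0.06. Foxj1, the dynein chains, spokes and nexin-dynein genes lie above the dashed line, and the intraflagellar transport genes spread around 0.27.

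Control replicate 3 also stood apart in other ways. It had the lowest 75th percentile of raw processed signal, 1229 against 2110 to 3261 on the other arrays, and its correlation with the others over probes was 0.936 to 0.957, whereas the other 11 correlated with each other at 0.975 or more. It was hybridised on the same slide as the 3 CS+LPS arrays, and all other arrays were on the other slide. Genes of other cell types differed on it as well. Of the airway secretory markers detected, 8 of 11 were more than 1 above the other controls, as were 8 of 8 heart muscle markers, 4 of 7 fat markers and 5 of 6 sperm markers. Among all detected probes, 2921 of 21239 were. Of 13 sperm markers measured, the defining markers Tnp1, Tnp2, Odf1, Akap4, Pgk2 and Acrv1 were not well above background on any array. Alveolar type 2 markers were more than 1 below in 3 of 10, macrophage markers in 3 of 7 and neutrophil markers in 2 of 10. Of the 7 macrophage markers, 1 was more than 1 above. The share of all probes more than 1 below is not given, so that these counts are a description. The part of these markers, of the signal level and of the slide in the ciliary excess was not tested. Comparisons with the controls are therefore given with and without this array.

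Foxj1 measured 11.40, 11.41 and 13.46 in the controls. It measured 11.76, 10.98 and 11.50 in the CS+LPS rats, 11.06, 10.92 and 11.04 in the CS+LPS+NaHS rats and 11.16, 11.23 and 11.48 in the CS+LPS+PPG rats. The first 2 controls lay within the range of the CS+LPS group, and the 3 NaHS arrays lay below every control array. Compared with the control group, Foxj1 was lower by a log2 difference of -1.08 (SE 0.45, n = 3 per group) in the NaHS group, which passed a fold change of 2 with an unadjusted limma p of 0.0367 and an adjusted p of 0.260. Without Control replicate 3 the difference was -0.40 with a limma p of 0.0755. In a fit of the arrays of the NaHS slide alone, which does not hold Control replicate 3, the same difference had a limma p of 0.0125. In the CS+LPS group the difference was -0.68 and became 0.0065 without that array, and in the PPG group it was -0.80 and became -0.12. The call with NaHS was also lost without any 1 of the 3 NaHS arrays, and Foxj1 was called lower with PPG, at -1.15 and -1.14, without Control replicate 1 or 2. In the fit of all arrays Foxj1 did not pass the test between any 2 exposed groups, where the 95% intervals ran from -1.41 to 0.60 for NaHS against CS+LPS, from -1.13 to 0.88 for PPG against CS+LPS and from -0.72 to 1.29 for PPG against NaHS. Without Control replicate 3, NaHS against CS+LPS, which lay on different slides, was -0.41 with an unadjusted limma p under 0.05. In the fit of the NaHS slide alone, PPG against NaHS was 0.28 with a limma p of 0.0344. Neither difference reached 2-fold or an adjusted p under 0.05.

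The dynein genes were also highest on Control replicate 3, and their exposed groups had no order shared by these genes. Dnah1, the only heavy chain with a probe among 13 in the gene table, measured 7.57, 7.41 and 9.39 in the controls and 8.34, 6.71 and 8.03 in the CS+LPS rats. It measured 7.76, 7.90 and 7.94 with NaHS and 7.65, 7.46 and 7.24 with PPG. The CS+LPS arrays lay on both sides of the first 2 controls and the NaHS arrays slightly above them. The intermediate chain Dnai7 was 10.93, 11.36 and 12.53 in the controls, and 10.64 to 11.56 over the 9 exposed arrays. Dnai4, another intermediate chain, was 8.44, 8.32 and 8.03 in the CS+LPS group against 8.90, 8.71 and 10.14 in the controls, and the groups did not overlap. Its log2 difference was -0.99 (SE 0.31, limma p 0.00968, adjusted p 0.105), just short of 2-fold, and -0.54 (p 0.0112) without Control replicate 3. Dnai4 measured 8.93, 8.91 and 8.74 with NaHS and 9.13, 8.63 and 8.99 with PPG, which overlapped the controls.

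Of the 9 dynein assembly factors, Dnaaf6 passed a fold change of 2 with p under 0.05 in both drug groups. It was 8.97, 8.54 and 10.18 in the controls, 9.02, 8.70 and 7.67 with CS+LPS, 8.82, 7.74 and 7.62 with NaHS and 7.79, 8.13 and 8.23 with PPG. Only the PPG group lay wholly below the controls. The log2 difference from the controls was -1.17 (SE 0.47, limma p 0.0303, adjusted p 0.250) with NaHS and -1.18 (SE 0.47, limma p 0.0292, adjusted p 0.128) with PPG, and both fell short of 2-fold without Control replicate 3, at -0.70 and -0.71.
Dnaaf10 was 10.62, 10.46 and 11.44 in the controls and 10.34, 10.25 and 10.17 with NaHS, a difference of -0.59 (limma p 0.0229) that was -0.29 without Control replicate 3. Dnaaf5 and Dnaaf9 were lowest in the CS+LPS group. Dnaaf5 measured 7.19, 6.41 and 6.68 with CS+LPS, 7.49, 7.76 and 7.54 with NaHS and 7.22, 6.60 and 6.82 with PPG. The NaHS group lay above both other exposed groups, by 0.84 over CS+LPS (SE 0.24, limma p 0.00581, adjusted p 0.185), and PPG lay 0.72 below NaHS (limma p 0.0138, adjusted p 0.554). Dnaaf9 was well above background on 8 of the 12 arrays, and measured 4.73, 4.29 and 4.73 with CS+LPS and 5.27, 5.47 and 5.40 with NaHS. It met the detection rule through the NaHS group alone, where it was highest, so that its difference is a description.

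Radial spoke and nexin-dynein genes were high on Control replicate 3. Rsph1, a spoke head protein, was 12.00, 11.58 and 13.66 in the controls and 11.82 to 12.34 over all 9 exposed arrays. None of the 7 spoke genes passed the fold change and p in any comparison, where 0.499% to 4.6% of all probes did. Their medians against the controls without Control replicate 3 were -0.07 (CS+LPS), 0.05 (NaHS) and 0.0008 (PPG). Rsph6a, which belongs to the spoke of sperm tails, was 5.58, 6.32 and 5.47 with CS+LPS, 6.82, 6.44 and 6.29 with NaHS and 6.36, 6.40 and 6.94 with PPG. The CS+LPS+PPG group lay above CS+LPS by 0.77 (SE 0.27, limma p 0.0148, adjusted p 0.313), and NaHS by 0.72 (limma p 0.0208, adjusted p 0.332). Rsph3 was 8.37, 8.44 and 9.58 in the controls and 8.14, 7.95 and 8.18 with PPG, a difference of -0.71 (limma p 0.0368) that was -0.32 without Control replicate 3. Drc12 was 11.21, 11.16 and 12.61 in the controls and 10.96 to 11.56 in the exposed rats, and no Drc gene passed the fold change and p.

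Among the 21 Cfap genes, Cfap97 and Cfap45 were lower in the CS+LPS group. Cfap97 measured 9.29, 8.62 and 10.51 in the controls and 8.24, 8.43 and 8.24 with CS+LPS, without overlap. The log2 difference was -1.17 (SE 0.37, limma p 0.00975, adjusted p 0.105), and -0.65 (p 0.0150) without Control replicate 3. Cfap45, a protein inside the doublet, was 10.71, 10.81 and 12.22 in the controls and 10.64, 9.99 and 10.01 with CS+LPS, again without overlap. Its difference was -1.04 (SE 0.36, limma p 0.0155, adjusted p 0.124), and -0.55 (p 0.0390) without Control replicate 3. With NaHS it measured 11.08, 11.27 and 11.26, which lay 0.99 above CS+LPS (SE 0.36, limma p 0.0193, adjusted p 0.322).
Cfap52, another doublet protein, was 10.36, 10.06 and 9.98 with CS+LPS against 10.61, 10.71 and 11.44 in the controls. The difference was -0.79 (limma p 0.00339, adjusted p 0.0751) and -0.52 without Control replicate 3. Cfap95 was 8.87, 8.85 and 8.71 with NaHS against a control mean of 9.73 (SD 0.79, n = 3), a difference of -0.92 (limma p 0.0327) and -0.49 without that array. Cfap36, which occurs outside motile cilia as well, was 11.28, 11.54 and 10.88 with CS+LPS and 11.85, 11.58 and 12.12 with PPG, a difference of 0.61 (limma p 0.0113, adjusted p 0.274). Cfap20, which is found in primary and motile cilia, stayed between 11.90 and 12.15 on all 12 arrays.

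**Figure D3:**
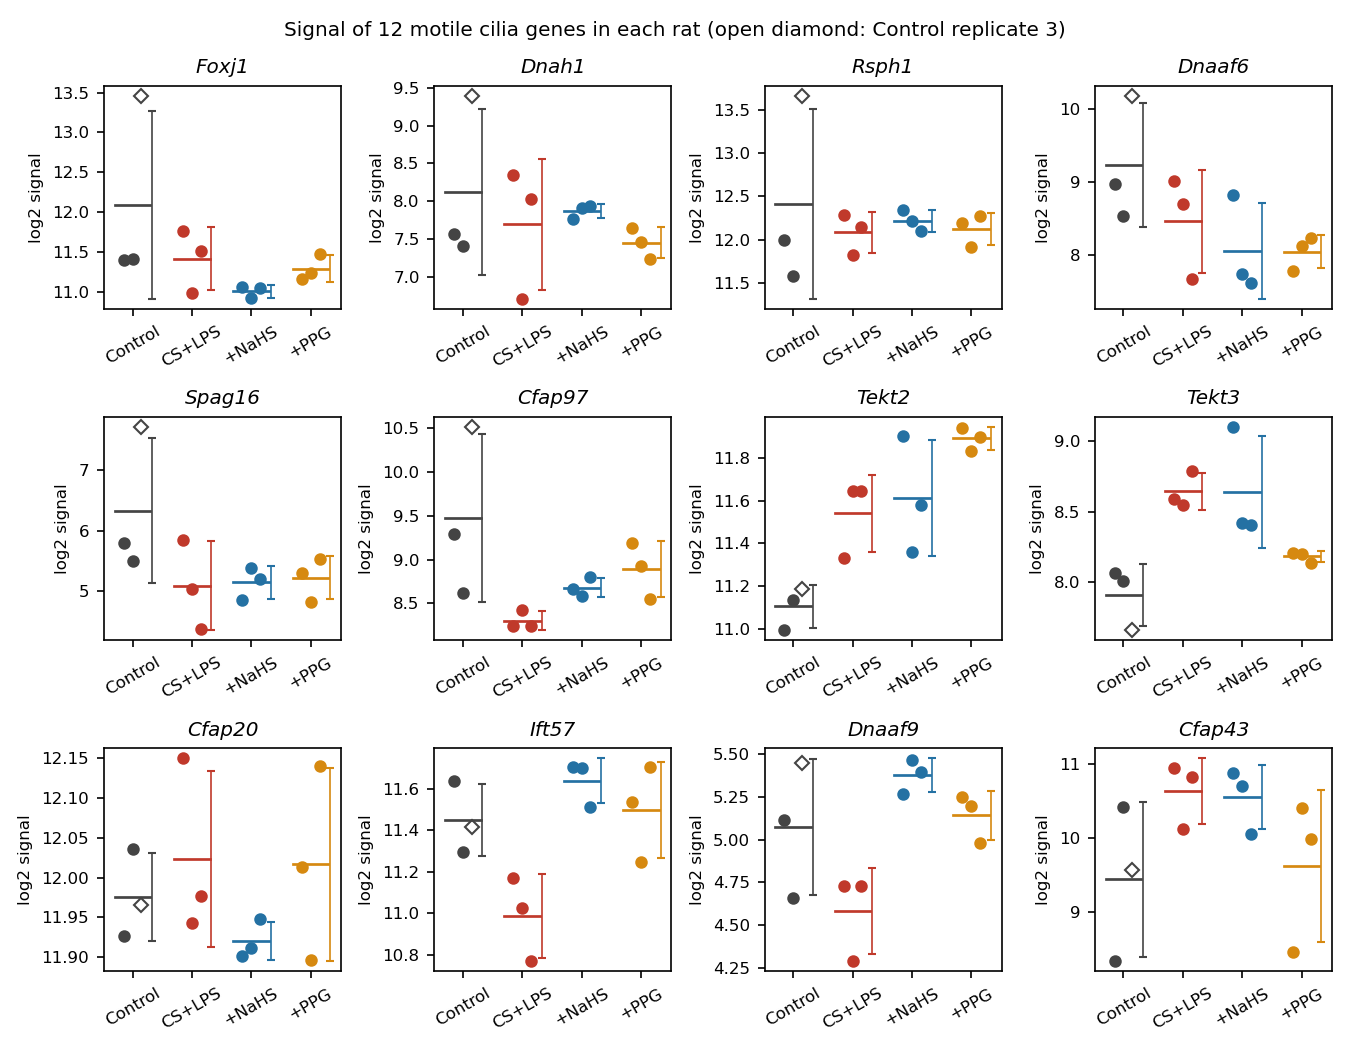
Log2 signal of 12 members in the 4 groups; each point is 1 array, the line the group mean, the bar its SD, and the open diamond Control replicate 3. The diamond is the highest point for Foxj1, Dnah1, Rsph1, Dnaaf6, Spag16 and Cfap97, whereas Tekt2 and Tekt3 have their control points, the diamond included, below the CS+LPS and NaHS points.

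The tektins Tekt2 and Tekt3 were higher in the exposed groups than in the controls. Tekt2 measured 10.99, 11.14 and 11.18 in the controls, with Control replicate 3 close to the other controls. It measured 11.33, 11.65 and 11.65 with CS+LPS, 11.90, 11.36 and 11.58 with NaHS and 11.94, 11.84 and 11.90 with PPG, and all 9 exposed arrays lay above all 3 control arrays. The rise with PPG was 0.79 (SE 0.15, limma adjusted p 0.0283), the only one of the 76 members to pass an adjusted p of 0.05 in any comparison, where 5.24% of all probes passed. Without Control replicate 3 it was 0.83 (limma adjusted p 0.0352), and this comparison then lay within 1 slide. It no longer passed the adjusted test without Control replicate 1 or without any 1 of the 3 PPG arrays, when the rise was 0.73 or more. With CS+LPS and NaHS the differences were 0.44 (limma p 0.0167, adjusted p 0.127) and 0.51 (limma p 0.00727, adjusted p 0.171), and 0.48 and 0.55 without Control replicate 3.
Tekt3 measured 8.06, 8.01 and 7.66 in the controls, 8.59, 8.55 and 8.79 with CS+LPS, 9.10, 8.42 and 8.40 with NaHS and 8.21, 8.20 and 8.14 with PPG. Here too every exposed array was above every control array, but the PPG arrays lay below those of both other exposed groups. The difference from the controls was 0.73 for CS+LPS (SE 0.19, limma p 0.00300, adjusted p 0.0716) and 0.73 for NaHS (limma p 0.00307, adjusted p 0.136), and 0.61 and 0.60 without Control replicate 3. PPG lay 0.46 below CS+LPS (limma p 0.0354, adjusted p 0.413) and 0.46 below NaHS (limma p 0.0363, adjusted p 0.554). Tekt4 was 11.44, 11.62 and 12.86 in the controls and 10.98 to 11.83 in the exposed rats.

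Of the 8 detected Spag genes, Spag16, a protein of the central pair of the axoneme, had the lowest difference from the controls. It was 5.79, 5.49 and 7.72 in the controls, 5.85, 5.04 and 4.38 with CS+LPS, 4.84, 5.38 and 5.20 with NaHS and 5.30, 4.83 and 5.53 with PPG. It was well above background on 9 of the 12 arrays, among them all 3 controls. It met the detection rule through the control group alone, so that its lower values elsewhere are a description with no test. The log2 difference was -1.25 with CS+LPS, where the groups overlapped, and -1.19 with NaHS. Without Control replicate 3 these were -0.55 and -0.50. Spag7, which is not known as a ciliary protein, was 14.81, 14.90 and 14.99 in the controls and 13.52 to 15.08 in the exposed rats. Spag4 was not well above background on any control array and met the detection rule through the NaHS and PPG groups alone. Its mean log2 signal was 1.20-fold higher with NaHS and 1.49-fold higher with PPG than in the controls. These are plain differences of the measured means and a description with no test, and neither passed the fold change.

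None of the 15 intraflagellar transport genes was called in any comparison, that is, passed a fold change of 2 with p under 0.05, where 0.499% to 4.6% of all probes were called. Ift57 was 11.64, 11.30 and 11.42 in the controls, 11.17, 11.02 and 10.77 with CS+LPS, 11.70, 11.70 and 11.51 with NaHS and 11.54, 11.25 and 11.70 with PPG. The CS+LPS arrays lay below those of every other group. Its difference from the controls was -0.46 (limma p 0.0156, adjusted p 0.124), with nearly the same value, -0.48, without Control replicate 3. NaHS lay 0.65 above CS+LPS (SE 0.16, limma p 0.00202, adjusted p 0.113) and PPG 0.51 above it (SE 0.16, limma p 0.00934, adjusted p 0.250).
Ift25 was 10.11, 10.25 and 9.84 in the controls and 10.49, 10.75 and 11.15 with PPG, a difference of 0.73 (limma p 0.00546, adjusted p 0.0642) that was 0.62 without Control replicate 3. Ift88 was 9.16, 8.65 and 9.42 in the controls and 8.66, 8.62 and 8.55 with PPG, a difference of -0.47 (limma p 0.0272, adjusted p 0.124) that was -0.30 without Control replicate 3. Ift46 was 10.09 (SD 0.08, n = 3) with NaHS and 9.67 (SD 0.07, n = 3) with PPG, a difference of -0.42 (limma p 0.0227, adjusted p 0.554), and Ift74 was 0.40 higher with PPG than with NaHS (limma p 0.0387, adjusted p 0.554). Ift27 was 13.02, 13.12 and 13.71 in the controls and 12.81 to 13.19 in the exposed rats.

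Compared with the control group, 65 of the 76 members were lower in the CS+LPS group, with a median log2 difference of -0.39 against -0.06 over all probes. A member was called where the fold change was at least 2 and the unadjusted limma p under 0.05. In this comparison 3 members were called, Spag16, Cfap97 and Cfap45, all lower, which is 3 of 76 where 4.6% of all probes were called. Spag16 was detected through the control group alone, and of the 72 members detected on all 12 arrays 2 were called. None passed an adjusted p of 0.05, against 2.1% of all probes, and 12 members had an unadjusted p under 0.05, where 25.5% of all probes did. Without Control replicate 3 no member was called, against 2.89% of all probes, the median was -0.03, and 41 of 76 were lower. The CS+LPS arrays and the 2 remaining controls lay on different slides, so that exposure and slide cannot be told apart there. Within the slide that held both groups, the 3 CS+LPS arrays against Control replicate 3 alone gave a median of -0.98, against -0.11 over all probes. Both values rest on 1 control array. Leaving out Control replicate 2 gave 7 called members, and leaving out CS+LPS replicate 3 gave 1. For counts with 1 array other than Control replicate 3 left out, here and below, no share of all probes is given.

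With NaHS, 3 members were called lower than the controls, Spag16, Dnaaf6 and Foxj1, where 2.58% of all probes were called, or 2 of the 72 detected on all 12 arrays. None passed an adjusted p of 0.05, against 0.122% of all probes, and 7 had an unadjusted p under 0.05, where 17.6% of all probes did. The median difference was -0.17 and became 0.09 without Control replicate 3, when no member was called against 1.96% of all probes. Leaving out Control replicate 2 gave 6 called members, NaHS replicate 1 gave 1, and NaHS replicate 2 or 3 gave 0. With PPG, Dnaaf6 was the 1 member called, where 4.3% of all probes were called, and 6 members had an unadjusted p under 0.05, where 29.6% of all probes did. The median difference was -0.23 and became 0.03 without Control replicate 3, with no member called against 3.19% of all probes. Leaving out Control replicate 1 gave 3 called members, Control replicate 2 gave 4, and PPG replicate 1 or 2 gave 0. Both comparisons without that array lay within 1 slide. The 3 comparisons with the control group share the same control arrays, and the values stand side by side for that reason.

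**Figure D4:**
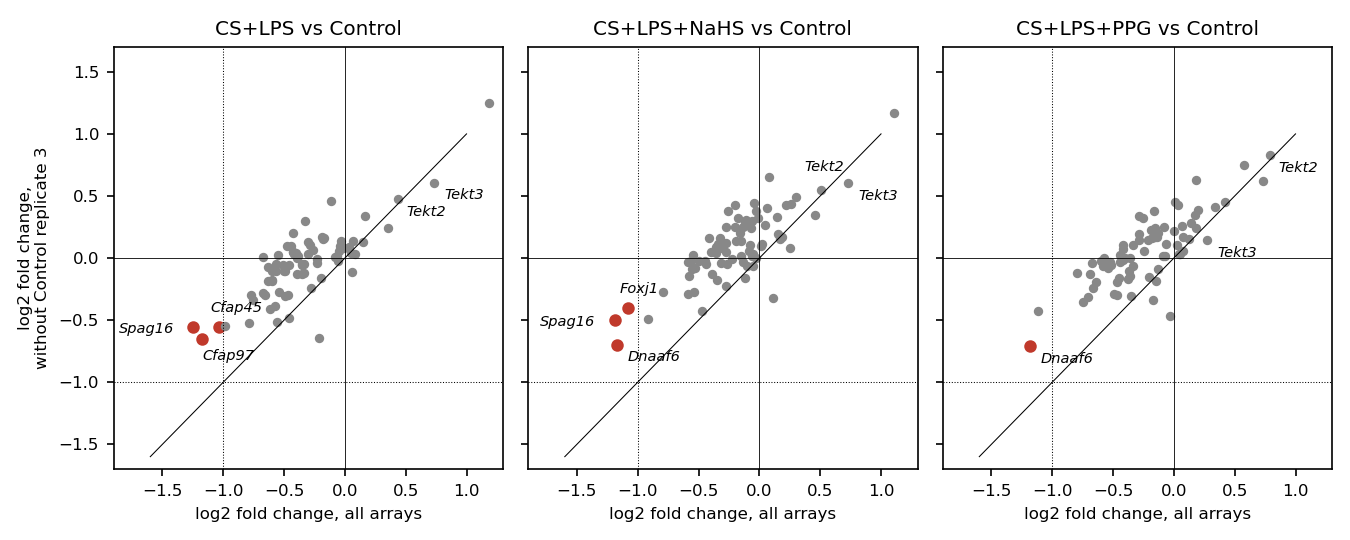
For each of the 76 members, the log2 fold change against the control group from all arrays (horizontal) and without Control replicate 3 (vertical); red points were called with all arrays, dotted lines mark a fold change of 2 and the diagonal marks equal values. Most points lie above the diagonal and no red point keeps a fold change of 2 on the vertical axis, while Tekt2 in the PPG panel, 0.79 and 0.83, lies close to the diagonal.

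Between the exposed groups no member was called. Compared with CS+LPS, 55 of 76 members were higher with NaHS, with a median of 0.10 against 0.03 over all probes. The limma fit called 0 members, where 1.94% of all probes were called and 0.739% passed an adjusted p of 0.05. Of the 72 members detected on all 12 arrays, 4 had an unadjusted p under 0.05, where 10.1% of all probes did. These were Ift57, Dnaaf5, Cfap45 and Rsph6a, all higher. Dnaaf9 also had one, but it met the detection rule through the NaHS group alone and is left out of this count. When Control replicate 3 was left out, which lowers the spread shared by all groups, Cfap45 (limma adjusted p 0.0407) passed the adjusted test with the same difference of 0.99. Dnaaf9, at 0.80, passed too, but was detected through the NaHS group alone and is not counted as support. Leaving out CS+LPS replicate 1 gave 2 called members, Dnaaf5 and Cfap45, and leaving out NaHS replicate 1 gave Cfap45 alone. With PPG, 48 of 76 were higher than in CS+LPS and the median was 0.09 against 0.05 over all probes. None was called, where 2.14% of all probes were called and 0.589% passed an adjusted p of 0.05, and 6 members had an unadjusted limma p under 0.05, where 10.8% of all probes did. Ift57, Rsph6a, Dnaaf9, Cfap36 and Tekt2 were higher and Tekt3 was lower. Leaving out CS+LPS replicate 2 or PPG replicate 2 gave 1 called member. Every CS+LPS array was on 1 slide and every NaHS and PPG array on the other, with Control replicate 3 the only link, so that drug and slide cannot be told apart within slides. With the slide as a block, the fit rests on that array. The medians over the members were then 1.12 for NaHS and 1.07 for PPG against CS+LPS, where those over all probes were 0.11 and 0.12.

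Compared with NaHS, PPG gave no called member in the limma fit, where 0.499% of all probes were called. At an adjusted p of 0.05 the share of all probes was 0%, and 4 members had an unadjusted p under 0.05, where 8.88% of all probes did. Dnaaf5, Ift46 and Tekt3 were lower with PPG and Ift74 was higher. The median over the 76 members was -0.04, and the differences ran from -0.93 to 0.49.

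The spread inside the groups followed the arrays described above. The median SD over the 76 members was 0.59 in the controls, 0.30 with CS+LPS, 0.11 with NaHS and 0.16 with PPG, and the controls had the widest SD in 58 of the 76. Within CS+LPS the 3 arrays also differed as a set. Among the 11 arrays other than Control replicate 3, CS+LPS replicate 1 gave the highest value for 27 of the 53 members that are neither Spag nor Ift genes. CS+LPS replicate 2 gave the lowest for 22 and CS+LPS replicate 3 for 13. The median deviation of the 53 genes from their mean over the 11 arrays was 0.24, -0.26 and -0.14 on the 3 CS+LPS arrays and -0.06 to 0.14 on the other 8.

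Motile cilia genes that the naming rule leaves out had the same pattern over arrays. Of 71 such genes listed, among them doublet, dynein-docking and ciliated cell genes, 43 were measured and 40 detected. On Control replicate 3, 26 of the 40 were more than 1 above the other controls, where 2921 of 21239 detected probes were. Against the controls their median differences were -0.41 (CS+LPS), -0.31 (NaHS) and -0.35 (PPG), and -0.04, 0.04 and 0.02 without Control replicate 3. Kif27, a kinesin of motile cilia, was the 1 called of the 40, lower with CS+LPS at -1.11 (limma p 0.0324, adjusted p 0.163). In that comparison 4.6% of all probes were called. Without Control replicate 3 its difference was -0.61 and it was not called. Kif27 measured 5.89, 5.25 and 7.07 in the controls and 5.88, 4.44 and 4.58 with CS+LPS. Dynlrb2, a dynein light chain, stood 1.19 above the other controls on Control replicate 3, whereas the tubulins Tubb4b and Tuba1a, which most cells make, stood 0.13 and 0.09 above.

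Of the regulators of the ciliated cell program other than Foxj1, 4 were measured, Rfx2, Tp73, Deup1 and Stk36, and all 4 were highest on Control replicate 3. Rfx2, an RFX factor, was 10.21, 10.25 and 11.57 in the controls and 9.54 to 10.50 over the exposed arrays. Tp73, a factor needed for multiciliated cells, was 8.50, 8.47 and 10.27 in the controls, 8.39 (SD 0.55, n = 3) with CS+LPS and 8.78, 9.30 and 9.64 with NaHS. Stk36, a kinase needed for the central pair, was 6.06, 6.17 and 6.70 in the controls and 5.61, 5.61 and 5.38 with PPG, lower than every other array, with a difference of -0.78 (limma adjusted p 0.0398) and -0.58 without Control replicate 3. Of the 28 detected genes of primary cilia, none was called in any comparison, against the shares of all probes given above. On Control replicate 3, 17 of these 28 were highest of the 12 arrays. There 4 were more than 1 above the other controls, where 2921 of 21239 detected probes were. Their median deviation from the mean over the other 11 arrays was 0.58 on this array and -0.15 to 0.10 on the others.

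**Figure D5:**
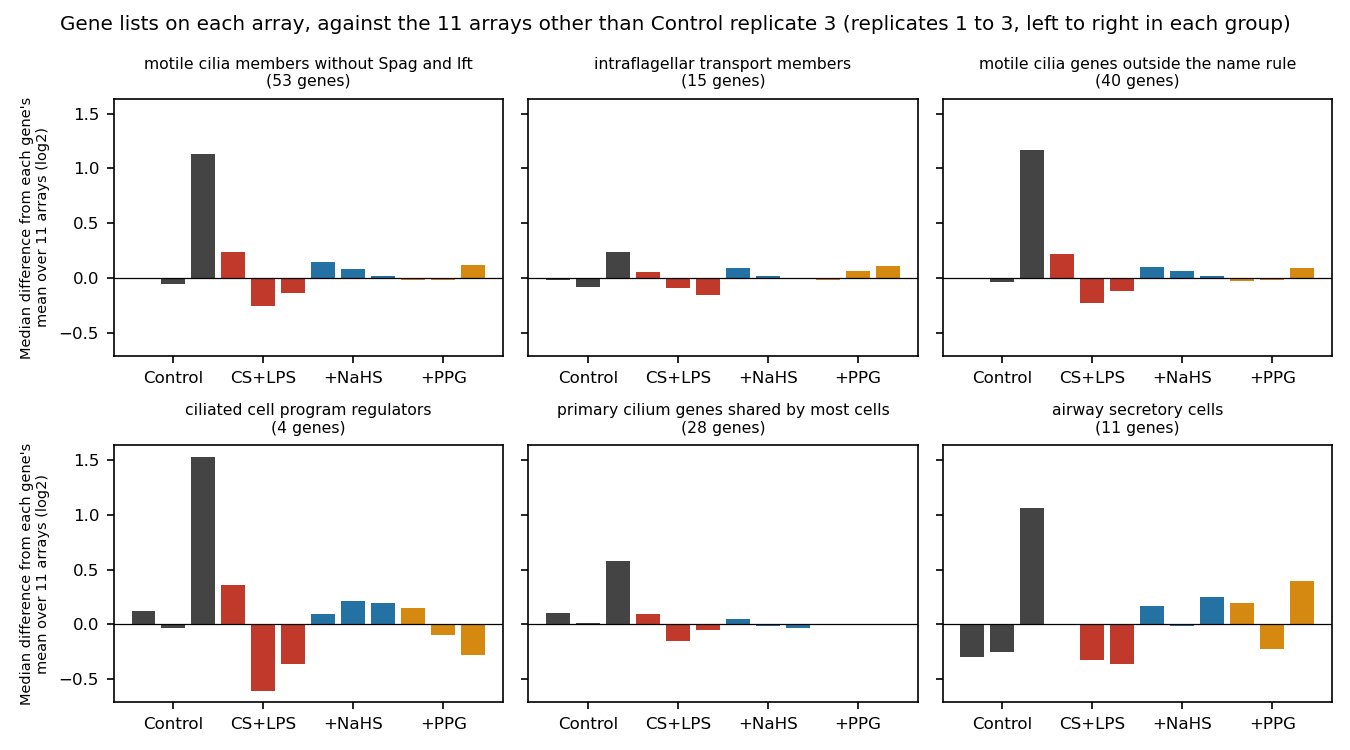
For 6 gene lists, each bar is 1 array and gives the median over the list of the difference in log2 signal from the mean of each gene over the 11 arrays other than Control replicate 3. For the members without Spag and Ift genes the bar of Control replicate 3 stands at 1.13 and the other 11 between -0.26 and 0.24.

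Markers of other cell types and tissues differed between groups beside the ciliary genes, and are given as the log2 summed signal of the detected markers. Their called counts against the controls stand beside 4.6% (CS+LPS), 2.58% (NaHS) and 4.3% (PPG) of all probes called. Without Control replicate 3 these shares were 2.89%, 1.96% and 3.19%. The heart muscle markers were at 12.8, 12.7 and 16.6 in the controls, 15.4 to 16.2 in the PPG rats, 13.4 to 15.9 in the NaHS rats and 13.6 to 15.8 in the CS+LPS rats. Without Control replicate 3, every exposed array lay above the controls, and all 8 detected heart markers were called higher with PPG, with a median of 4.71. The fat markers were at 12.8, 12.8 and 14.8 in the controls, 13.7 to 14.1 in the PPG rats, 13.1 to 13.4 in the NaHS rats and 12.9 to 13.3 in the CS+LPS rats, and without Control replicate 3 the PPG median was 1.45 with 4 of 7 called.
The airway secretory markers were at 18.5, 18.4 and 19.5 in the controls, 18.3 to 18.8 in the PPG rats, 18.3 to 18.5 in the NaHS rats and 18.2 to 18.4 in the CS+LPS rats. Of 11 detected, 3 were called higher with PPG and 1 with NaHS against the controls, and 5 and 4 were called without Control replicate 3. The airway basal cell markers were lowest in the CS+LPS rats, at 12.6 to 12.7 against 12.9 or more on every other array, with a median difference of -0.87 from the controls, -0.94 without Control replicate 3, and 2 of 7 called lower. Against the controls 1 of the 7 was called higher with NaHS, and with PPG 1 was called higher and 2 lower. Without Control replicate 3, 2, 1 and 3 were called in the CS+LPS, NaHS and PPG rats. Macrophage markers were at 13.4 to 13.9 in the controls and 14.4 to 14.8 in the exposed rats, and neutrophil markers at 13.8 to 14.5 and 14.7 to 15.9. Of 7 macrophage markers 3, 1 and 2 were called higher in the CS+LPS, NaHS and PPG rats, and of 10 neutrophil markers 3, 4 and 5. These counts were 2, 1 and 2 for macrophages and 2, 2 and 3 for neutrophils without Control replicate 3. No alveolar type 1 marker was called in any comparison, and of 4 pancreas markers detected 1 was called higher in the CS+LPS and PPG rats and 2 in the NaHS rats, with 1 lower in the CS+LPS rats. The part of these cells in the differences of the ciliary genes was not tested.

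The 6 members that were not detected were Cfap20dc, Cfap68, Cfap70, Cfap97d1, Spag11a and Spag6. Cfap70, an axonemal protein, was well above background on 1 array alone, Control replicate 3, where it measured 5.63 against 2.01 to 3.43 on the other 11. Of the 76 detected members, 72 were well above background on all 12 arrays, and the others were Spag4, Spag16, Dnaaf9 and Ift70a2. A second probe was detected for Spag6l, Dnaaf11 and Cfap44, and each was highest on Control replicate 3 like the first, at 8.79, 7.33 and 8.99.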

How the data were processed

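RNA from the lungs of 12 rats was hybridised to single-colour Agilent arrays, 3 per group. The authors deposited scanner files from Agilent Feature Extraction 10.7.3.1, whose values are background-subtracted spot intensities (processed signal) not yet normalized between arrays. The precision is limited by 3 arrays per group. No label ties replicate numbers to litters or days, and p-values measure the spread between these rats.

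Control spots and outlier spots were left out and spots of a probe averaged. The log2 processed signal minus the 75th percentile of each array was used, with the mean percentile added back. Of 30367 probes, 21239 read well above background on every array of 1 or more groups and were tested with limma 3.58.1 (R 4.3.3), all 12 arrays in 1 fit, two-sided, for 6 comparisons. Called means a fold change of at least 2 with an unadjusted p under 0.05; adjusted p-values are Benjamini-Hochberg over all probes. Gene symbols came from RefSeq accessions of the array through a GRCr8 gene table (17514 probes named). The array design is older, and its coordinates were not used.

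Genes named are Foxj1, the most intense member of each role and, in each comparison, the called members, or the 5 of smallest p where fewer than 5 were called. Other genes were named after their values were seen. The members and gene lists were chosen with earlier results of these data known. The lists were ciliated cell regulators, motile cilia genes outside the naming rule, primary cilium genes, airway secretory, airway basal, alveolar type 1, alveolar type 2, neutrophil, macrophage, heart muscle, fat, pancreas and sperm cell markers. The fit was tested on simulated data. Alternatives covered scaling, normexp background correction, filters, slide and replicate blocks, fits of 2 groups, the methods' t-test and each array left out. Raw images were not analysed here.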

Additional observations from a re-analysis of the deposited data

How the results depend on the processing

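The counts of called members depended on single arrays and on the slide block, and are given here without the share of all probes. Leaving out each array in turn gave 0 to 7 called members for CS+LPS against Control, 0 to 6 for NaHS and 0 to 4 for PPG against Control, 0 to 2 for NaHS and 0 to 1 for PPG against CS+LPS, and 0 for PPG against NaHS. The counts at an adjusted p under 0.05 ran from 0 to 3 for CS+LPS and 0 to 2 for PPG against Control, and 0 to 2 for NaHS against CS+LPS. The median for CS+LPS against Control ran from -0.57 to -0.0345. Foxj1 ran from -1.02 to 0.0065 for CS+LPS (0.0065 without Control replicate 3), from -1.43 to -0.40 for NaHS and from -1.15 to -0.12 for PPG against Control, and from -0.34 to 0.048 for PPG against CS+LPS (0.048 without CS+LPS replicate 1). Tekt2 kept an adjusted p under 0.05 for PPG against Control without Control replicate 3, whereas 0 members passed without Control replicate 1, or without any 1 of the 3 PPG arrays. With the slide as a block, CS+LPS against Control gave 37 called members, 54 at an adjusted p under 0.05, a median of -0.98 and Foxj1 at -2.04. NaHS against CS+LPS gave 43 called, 45 adjusted, a median of 1.12 and Foxj1 reversed to 1.64, and PPG against CS+LPS gave 44 called, 40 adjusted, a median of 1.07 and Foxj1 reversed to 1.93. NaHS and PPG against Control gave 0 called, with Foxj1 at -0.40 for NaHS. The block values of comparisons with the CS+LPS group rest on 1 control array, so that their counts of called members are not given. Over all probes the block medians were -0.11 for CS+LPS against Control, and 0.11 for NaHS and 0.12 for PPG against CS+LPS. Within slide 1, NaHS and PPG against Control gave 0 called and Foxj1 was -0.40 with NaHS; within slide 2, CS+LPS against Control replicate 3 gave 38 called, 21 adjusted, a median of -0.98 and Foxj1 at -2.04. PPG against Control gave 2 called with quantile normalization, with the filter of at least 1 array and with no filter. CS+LPS against Control gave 1 adjusted with normexp and 6 called with no filter, when PPG against Control had 0 adjusted. With only the arrays of the groups compared, 1 was called for CS+LPS and 0 for NaHS against Control, Foxj1 was -1.08 for NaHS and not called, and PPG had 0 adjusted. The methods' t-test, before and after Benjamini-Hochberg, gave 0 called for CS+LPS, NaHS and PPG against Control, Foxj1 at -1.08 for NaHS not called, and 0 adjusted for PPG. With the replicate number as a block, 0 members had an adjusted p under 0.05 for PPG against Control, and the other counts of members were within 1.5 times the values reported. Of 18 pairs of arrays with the same number in 2 groups, the correlations of their deviations ran from -0.31 to 0.14 and 2 were over 0.1. Pairs with different numbers ran from -0.20 to 0.22. With such overlap this check showed no pairing by number, and it cannot exclude one. The cause of these changes was not tested. Members with a signal near background, such as Spag4, Dnaaf9 and Ift70a2, are limited by that signal.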

Other observations

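Cfap43, a protein of the axoneme, fell into separate levels inside groups. It measured 8.33 on Control replicate 1 and 8.46 on CS+LPS+PPG replicate 1, and 9.57 to 10.94 on the other 10 arrays. Its differences, 1.19 for CS+LPS and 1.10 for NaHS against Control, were among the largest of the 76 members and did not pass the test (limma p 0.0615 and 0.0790, adjusted p 0.215 and 0.332). Control replicate 3 measured 9.57 and did not stand above the other arrays.

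Tekt5, a tektin best known from sperm, was 6.97, 7.30 and 5.83 in the controls and 6.34 to 7.05 on the exposed arrays, so that Control replicate 3 was the lowest array. Ift46 was also lowest there, at 9.50 against 9.62 to 10.16. Spag5, a spindle protein of dividing cells, was 7.66 to 8.92 on the exposed arrays with no order by group.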
